A study of Mus musculus with 8 samples.

Results

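Integrins are cell surface receptors made of an alpha and a beta chain, and 10 of the genes for these chains are described here in hematopoietic clusters and endothelium. The genes were chosen by name, with earlier results of these data known, from the 24015 genes of the count table. It holds 27 integrin chain genes in all, 18 alpha and 9 beta, and the 17 outside the 10 include the platelet pair. The 10 are the alpha chains Itga4, Itga5, Itga6, Itga9, Itgav, Itgal and Itgam and the beta chains Itgb1, Itgb2 and Itgb7. All 10 passed the filter on low counts that left 13908 genes to be tested.

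Cells were sorted from the E11.5 aorta-gonad-mesonephros region with its vitelline and umbilical arteries (AGM+VU). Hematopoietic clusters were gated as Ter119- VE-Cadherin+ c-Kit+ cells and endothelium as VE-Cadherin+ cells that lacked Ter119, Kit, CD41 and CD45. The wild type (WT) groups carried intact Steel alleles, and the Sl/Sl groups were homozygous for a germline deletion that takes in the gene for Kit ligand (Kitl) and is therefore present in every cell of the embryo. Both cell types were sorted from both genotypes, which makes 4 groups, and each had 2 libraries made with SMARTSEQ2 from 100 cells. The cells came from a single embryo or from a pool of up to 4 embryos with the same genotype. The genotype comparison asks what changes in the emerging cells and in their vessel wall when Kitl is missing, and the cell type comparison describes each population against the other.

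Integrins anchor cells to extracellular matrix or to counter-receptors on other cells, and they signal in both directions once talin and kindlin bind the beta chain. Most alpha chains pair with the product of Itgb1 to form receptors for fibronectin and laminin, whereas the products of Itgal and Itgam pair only with that of Itgb2, the common beta chain of the leukocyte integrins. In the embryonic aorta, hematopoietic clusters form within the endothelial lining, and integrins are known for their part in blood vessel assembly and in the homing of hematopoietic progenitors.

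Counts on genes summed to between 8933236 and 13428214 per library. As a check of the genotype, Kitl was counted 1250 and 923 times in the wild type endothelial libraries against 6 and 2 times in the mutant ones. The wild type cluster libraries held 110 and 0 counts of it and the mutant ones 1 and 3, which leaves wild type clusters replicate 2 without a check by this gene. All 15 endothelial and all 15 hematopoietic markers were detected in every library. The endothelial markers summed to between 6934 and 7971 CPM (counts scaled to a common library total) in endothelium and between 462 and 3117 in clusters, and the hematopoietic ones to between 168 and 188 CPM in endothelium and between 1636 and 2813 in clusters. Sl/Sl clusters replicate 1 had the highest endothelial sum among the cluster libraries, and Sl/Sl clusters replicate 2 stood apart by 5344 CPM of mesenchymal markers, against 335 to 1857 CPM in the other libraries.

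In the mm9 build of the count table, Itga4 lies at chr2:79095583-79173271, Itga6 at chr2:71624996-71696484 and Itgav at chr2:83564554-83647074, all on the plus strand. Itgal (chr7:134439774-134478651) and Itgam (chr7:135206154-135262005) share a chromosome, and so do Itga5 (chr15:103174718-103197179) and Itgb7 (chr15:102046426-102062366), both on the minus strand. Itga9 lies at chr9:118515827-118810121, Itgb1 at chr8:131209554-131257479 and Itgb2 at chr10:76993093-77028419, on the plus strand. Only Itga4 overlapped another gene in the table, by 166 bases with Cerkl on the opposite strand, which had at most 48 counts in any library. Each gene was counted over all its exons, 15 for Itgb7 to 31 for Itgal, so a level does not tell isoforms apart.

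The promoters of 7 of the 10 genes were matched in RefSeq (GRCm38.p6), as the 250 bases before the annotated start, which for Itga9 lies inside the gene as the count table has it. Shown are Itga4, Itgam and Itgb7, which were higher in clusters, and Itga5 and Itgb1, which were higher in endothelium, so that genes of either pattern can be read side by side. They lie at chr2:79255176-79255425 (plus strand), chr7:128062390-128062639 (plus), chr15:102231936-102232185 (minus), chr15:103366792-103367041 (minus) and chr8:128685404-128685653 (plus). Capitals mark a motif of ETS family factors, GAGGAA, or in Itga4 a motif of Runx factors, TGTGGT, either as written or as the reverse complement.
Itga4: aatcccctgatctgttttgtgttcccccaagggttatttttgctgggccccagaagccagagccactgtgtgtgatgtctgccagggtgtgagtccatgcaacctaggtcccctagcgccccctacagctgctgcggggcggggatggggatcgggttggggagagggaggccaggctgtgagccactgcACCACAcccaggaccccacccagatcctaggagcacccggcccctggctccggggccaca
Itgam: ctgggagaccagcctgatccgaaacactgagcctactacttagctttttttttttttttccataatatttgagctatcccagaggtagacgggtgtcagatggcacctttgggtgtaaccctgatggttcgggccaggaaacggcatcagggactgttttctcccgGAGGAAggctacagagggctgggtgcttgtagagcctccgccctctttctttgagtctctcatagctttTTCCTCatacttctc
Itgb7: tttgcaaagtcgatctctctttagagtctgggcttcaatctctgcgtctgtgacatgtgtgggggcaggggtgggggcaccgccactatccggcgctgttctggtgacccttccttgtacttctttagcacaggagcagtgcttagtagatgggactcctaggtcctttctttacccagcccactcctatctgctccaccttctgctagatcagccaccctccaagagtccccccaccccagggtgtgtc
Itga5: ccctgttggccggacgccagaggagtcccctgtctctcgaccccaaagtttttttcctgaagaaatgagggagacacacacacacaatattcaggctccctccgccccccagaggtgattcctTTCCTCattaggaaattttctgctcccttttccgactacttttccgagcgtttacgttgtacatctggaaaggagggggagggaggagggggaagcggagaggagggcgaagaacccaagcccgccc
Itgb1: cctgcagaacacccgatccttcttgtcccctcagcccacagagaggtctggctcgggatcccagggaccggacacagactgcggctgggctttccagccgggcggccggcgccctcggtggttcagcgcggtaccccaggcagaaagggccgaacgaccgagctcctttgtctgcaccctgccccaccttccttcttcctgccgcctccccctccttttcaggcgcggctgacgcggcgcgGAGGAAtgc

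Searched on both strands, GAGGAA was present in 4 of the 7 promoters, against 23.3% of 32851 promoters of the same length. Itgam held it 84 and 15 bases before the start, Itga5 127 bases and Itgb1 9 bases before it, so the letters were found in genes of both patterns. Itgav, not shown, held it 218 and 7 bases before the start. The letters TGTGGT were found in 1 of the 7, Itga4, 60 bases before the start, against 14.0% of all promoters. The other Runx motif searched, TGCGGT, and a motif of GATA factors, AGATAA, were in none of the 7 and in 5.1% and 9.99% of all promoters. A match of these letters was not tested as a binding site.

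Clusters and endothelium differed in the RNA levels of integrin chains. Of the 10 genes, 5 were lower in endothelium than in clusters (Itga4, Itgal, Itgam, Itgb2 and Itgb7) and 3 were higher (Itga5, Itga6 and Itgb1), by edgeR's quasi-likelihood test over both genotypes at a Benjamini-Hochberg adjusted p under 0.1. That made 8 of 10 called, where 16.6% of all tested genes were called, 8.48% as higher and 8.12% as lower in endothelium. The 10 genes were chosen with earlier results of these data known, so counts of them beside such shares are a description. At an unadjusted p under 0.05, all 10 passed, against 26.6% of all genes. The libraries are bulk samples of sorted cells, in which fewer cells of a type and less RNA per cell cannot be told apart.

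**Figure D1:**
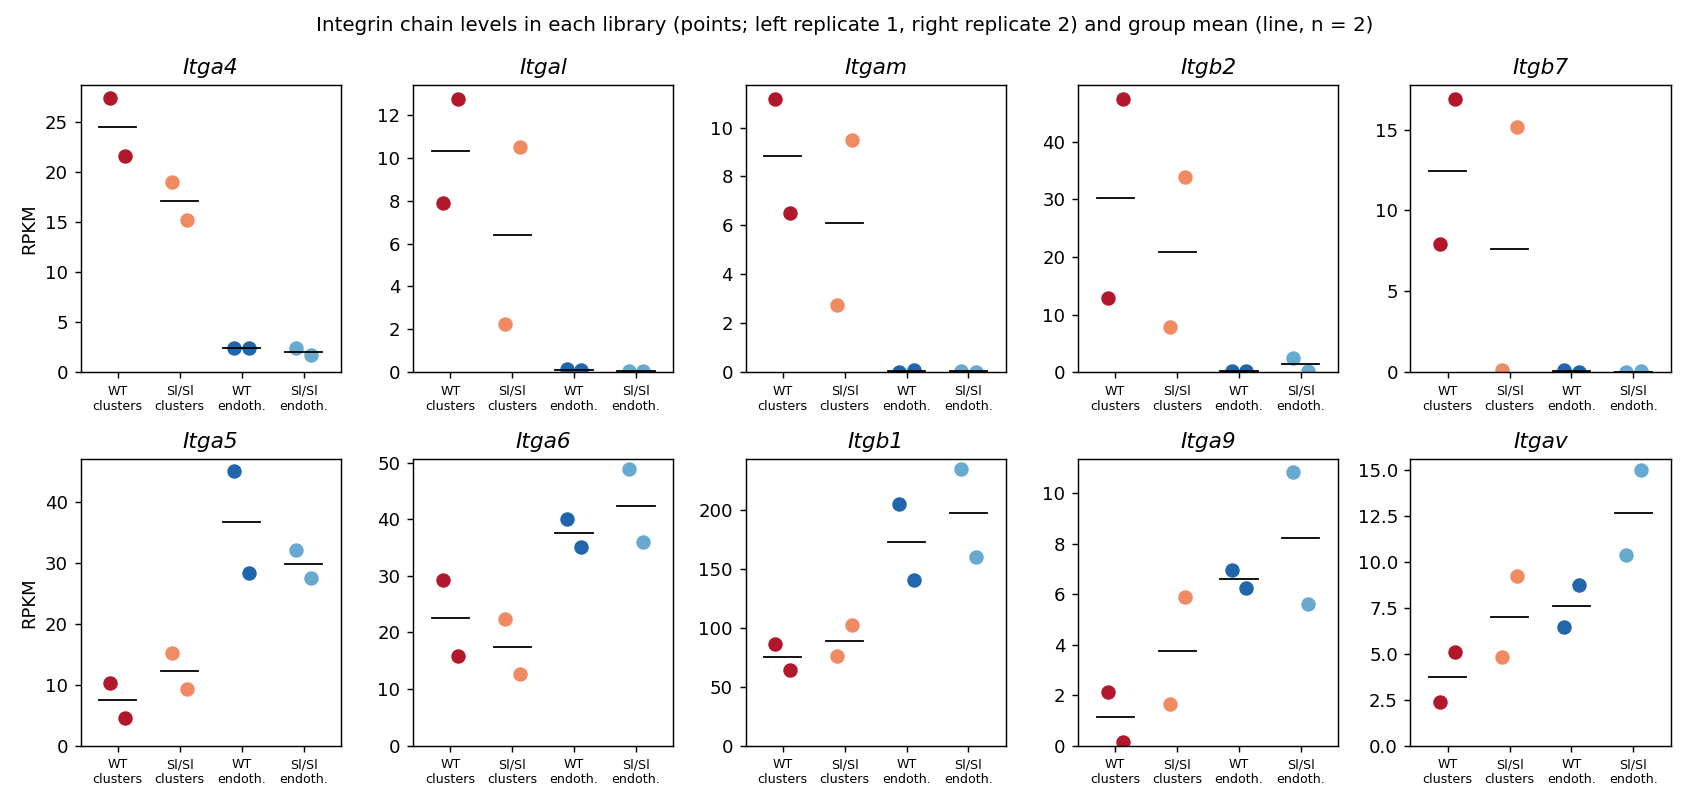
Level of each integrin chain gene, in RPKM (counts per kilobase of exon, scaled to the library total), in the 8 libraries, with points for the libraries and lines for the means of 2. The genes of the upper row were higher in clusters, those of the lower row higher in endothelium, with overlapping points for Itgav and Itga9.

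Itga4, whose product binds fibronectin and VCAM-1 and is used by hematopoietic progenitors to home, was measured at 27.4 and 21.7 RPKM in wild type clusters, 19.0 and 15.2 in Sl/Sl clusters, 2.45 and 2.45 in wild type endothelium, and 2.39 and 1.69 in the endothelium of Sl/Sl. Every cluster library was above every endothelial library, and the replicates of each group lay close together. The log2 fold change, endothelium over clusters, was -3.07 (SE 0.25, edgeR adjusted p = 0.000178), an 8.38-fold difference in level. It was -3.19 within wild type and -2.94 within Sl/Sl, with adjusted p-values of 0.00194 and 0.00531.

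Itgb2, the beta chain shared by the leukocyte integrins, had 12.9 and 47.5 RPKM in wild type clusters and 7.79 and 33.8 in Sl/Sl clusters. In endothelium it had 0.218 and 0.166 RPKM in wild type against 2.52 and 0.156 in Sl/Sl. All cluster libraries were above all endothelial libraries, but the cluster replicates differed from each other several times over, and 86 of the 103 endothelial counts came from Sl/Sl endothelium replicate 1. Endothelium differed from clusters by a log2 fold change of -5.48 (SE 0.95, edgeR adjusted p = 0.00788).

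Its alpha partners had few counts in endothelium. Itgal, which encodes CD11a and with Itgb2 makes the leukocyte receptor for ICAM proteins, had 7.90 and 12.8 RPKM in wild type clusters and 2.25 and 10.5 in Sl/Sl clusters. In endothelium it had 8, 6, 2 and 2 counts, or at most 0.119 RPKM. The log2 fold change was -6.78 (SE 0.77, edgeR adjusted p = 0.0010), and the pooled level was 99.8 times that of endothelium, with an exact binomial 95% interval of 63.0 to 169 that covers counting error only.

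Itgam, which encodes CD11b and with Itgb2 makes the complement receptor of myeloid cells, had 11.2 and 6.51 RPKM in wild type clusters and 2.74 and 9.48 in Sl/Sl clusters. Endothelial counts were 0 and 5 for wild type against 3 and 0 for Sl/Sl, a level near or at the 3 counts that a count of 0 allows. On the log2 scale the difference was -7.38 (SE 1.20, edgeR adjusted p = 0.00570) and the pooled ratio 176 (95% interval 89.2 to 409, counting error only).

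Itgb7, whose product pairs with that of Itga4 to bind MAdCAM-1, had 7.93 and 16.9 RPKM in wild type clusters. It had 15.2 RPKM in Sl/Sl clusters replicate 2 but 0.125 RPKM, from 4 counts, in Sl/Sl clusters replicate 1. The endothelial libraries held 4 and 0 counts (wild type) and 0 and 1 (Sl/Sl), so that on this scale the lowest cluster library was just above the highest endothelial one, at 0.117 RPKM. The log2 fold change over both genotypes was -7.86 (SE 1.71, edgeR adjusted p = 0.0200), and the pooled ratio was 223 (95% interval 95.4 to 689, counting error only). Within each genotype the difference did not pass the threshold, with adjusted p-values of 0.112 in wild type and 0.172 in Sl/Sl.

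The genes higher in endothelium were expressed in both populations. Itgb1, the beta chain of most matrix receptors, had the highest level of all 10 in every library, at 86.9 and 64.8 RPKM in wild type clusters, 76.1 and 102 in Sl/Sl clusters, 205 and 141 in wild type endothelium, and 235 and 161 in the endothelium of Sl/Sl. The lowest endothelial library was above the highest cluster library. The log2 fold change was 1.30 (SE 0.19, edgeR adjusted p = 0.00379), a 2.46-fold difference in level, and it was 1.32 within wild type and 1.28 within Sl/Sl.

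Itga5, which encodes the alpha chain of the main fibronectin receptor, had 10.2 and 4.63 RPKM in wild type clusters and 15.3 and 9.24 in Sl/Sl clusters. In endothelium it had 45.1 and 28.4 RPKM in wild type against 32.2 and 27.6 in Sl/Sl. The ranges did not overlap, and the log2 fold change was 1.92 (SE 0.33, edgeR adjusted p = 0.00732). Within wild type it was 2.44 (adjusted p = 0.0227) and within Sl/Sl 1.41, which did not pass (adjusted p = 0.204).

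Itga6, a laminin receptor chain, had 29.3 and 15.9 RPKM in wild type clusters, 22.4 and 12.6 in Sl/Sl clusters, 40.0 and 35.2 in wild type endothelium, and 48.9 and 36.0 in the endothelium of Sl/Sl. In clusters it was as abundant as Itga4, with a mean of 20.0 RPKM against 20.8 over the 4 libraries. Its log2 fold change was 1.13 (SE 0.27, edgeR adjusted p = 0.0301), and the difference was 1.83-fold in wild type and 2.63-fold in Sl/Sl, neither of which passed alone.

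Itga9 and Itgav did not pass the threshold. Itga9, a partner of Itgb1 that binds tenascin and is needed for lymphatic valves, had 2.11 and 0.157 RPKM in wild type clusters, 1.65 and 5.88 in Sl/Sl clusters, 6.95 and 6.25 in wild type endothelium, and 10.8 and 5.62 in the endothelium of Sl/Sl. Its cluster libraries ranged from 14 to 560 counts, with the highest in Sl/Sl clusters replicate 2, the library with the most mesenchymal marker RNA; the part of such RNA in its level was not tested. Endothelium over clusters, the log2 fold change was 1.99 (SE 0.73, edgeR adjusted p = 0.122). It was 3.37 without wild type clusters replicate 1 and 1.51 without wild type clusters replicate 2, fits that each leave a single wild type cluster library.

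Itgav, the alpha chain of vitronectin receptors, had 2.37 and 5.08 RPKM in wild type clusters, 4.81 and 9.25 in Sl/Sl clusters, 6.45 and 8.72 in wild type endothelium, and 10.4 and 15.0 in the endothelium of Sl/Sl. Here too the highest cluster library was Sl/Sl clusters replicate 2, which overlapped the wild type endothelium. The difference was 1.07 on the log2 scale (SE 0.38, edgeR adjusted p = 0.112).

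**Figure D2:**
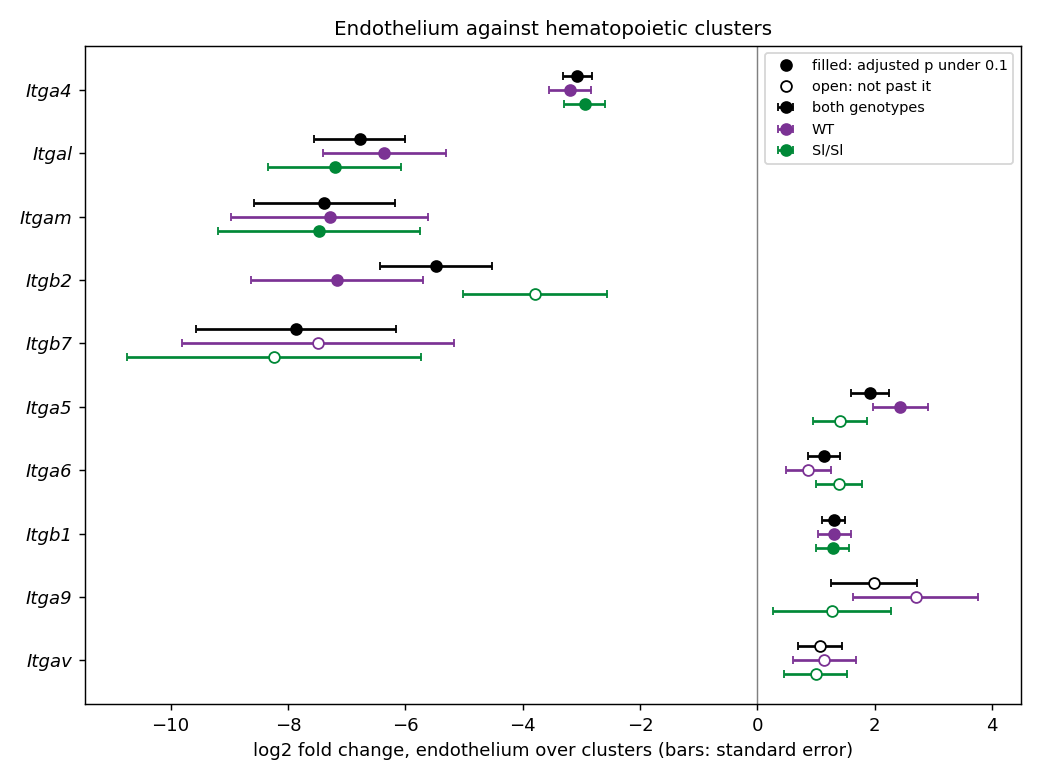
log2 fold change of each gene in endothelium over clusters, with bars of 1 standard error, over both genotypes (black), within wild type (purple) and within Sl/Sl (green). Filled points passed an adjusted p of 0.1; 5 genes lie left of 0 and 5 right of it in all fits, and Itgb2 has its least negative value, -3.80, in Sl/Sl.

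Ranked by single library, the TMM-scaled CPM values of the 4 cluster and the 4 endothelial libraries did not overlap in 9 of the 10 genes, all but Itgav, against 19.7% of all tested genes. On RPKM with plain totals, Itga9 overlapped as well. For each of the 9 genes the two-sided exact permutation test of the mean log2 CPM, 4 libraries against 4, gave p = 0.0286, the smallest value that the 70 splits allow, and for Itgav it gave p = 0.0571. As the genes were chosen with earlier results of these data known, the 9 of 10 and these p-values are a description.

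Split by genotype, the cell type difference passed in 6 genes in wild type (2 higher in endothelium, 4 lower) and in 4 genes in Sl/Sl (1 higher, 3 lower). Over all tested genes the shares called were 8.24% in wild type, 4.56% higher and 3.68% lower, and 2.83% in Sl/Sl, 0.985% higher and 1.84% lower. At an unadjusted p under 0.05 the counts were 9 and 8 of the 10, against 19.5% and 14.4% of all genes. The genes called in Sl/Sl were Itga4, Itgal, Itgam and Itgb1, and those called in wild type were the same 4 with Itga5 and Itgb2. That a gene passed in 1 genotype only does not show that the genotypes differed: the interaction, tested directly, called 0 of 10 genes at the adjusted threshold, as it did among all genes (0%). At an unadjusted p under 0.05 it also held 0 of the 10, against 5.29% of all genes. The largest interaction was that of Itgb2 (log2 -3.37, SE 1.67, edgeR adjusted p = 0.905).

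The composition of the integrin chains was compared within each library, as the share of summed RPKM over the 18 alpha or the 9 beta chains. Itgb1 took 96.4 to 98.3% of beta chain RPKM in endothelium and 47.3 to 80.5% in clusters. In clusters, Itgb2 took 8.23 to 34.7% and Itgb7 0.132 to 12.3%, while in endothelium Itgb2 took 0.0956 to 1.05% and Itgb7 at most 0.0559%. The beta chain RNA of endothelium was nearly all Itgb1, and that of clusters was shared among several chains. Itgb3, not among the 10, took 3.78 to 10.2% in the cluster libraries and exceeded Itgb2 in Sl/Sl clusters replicate 1, and Itgb5 took 9.74% in Sl/Sl clusters replicate 2.

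**Figure D3:**
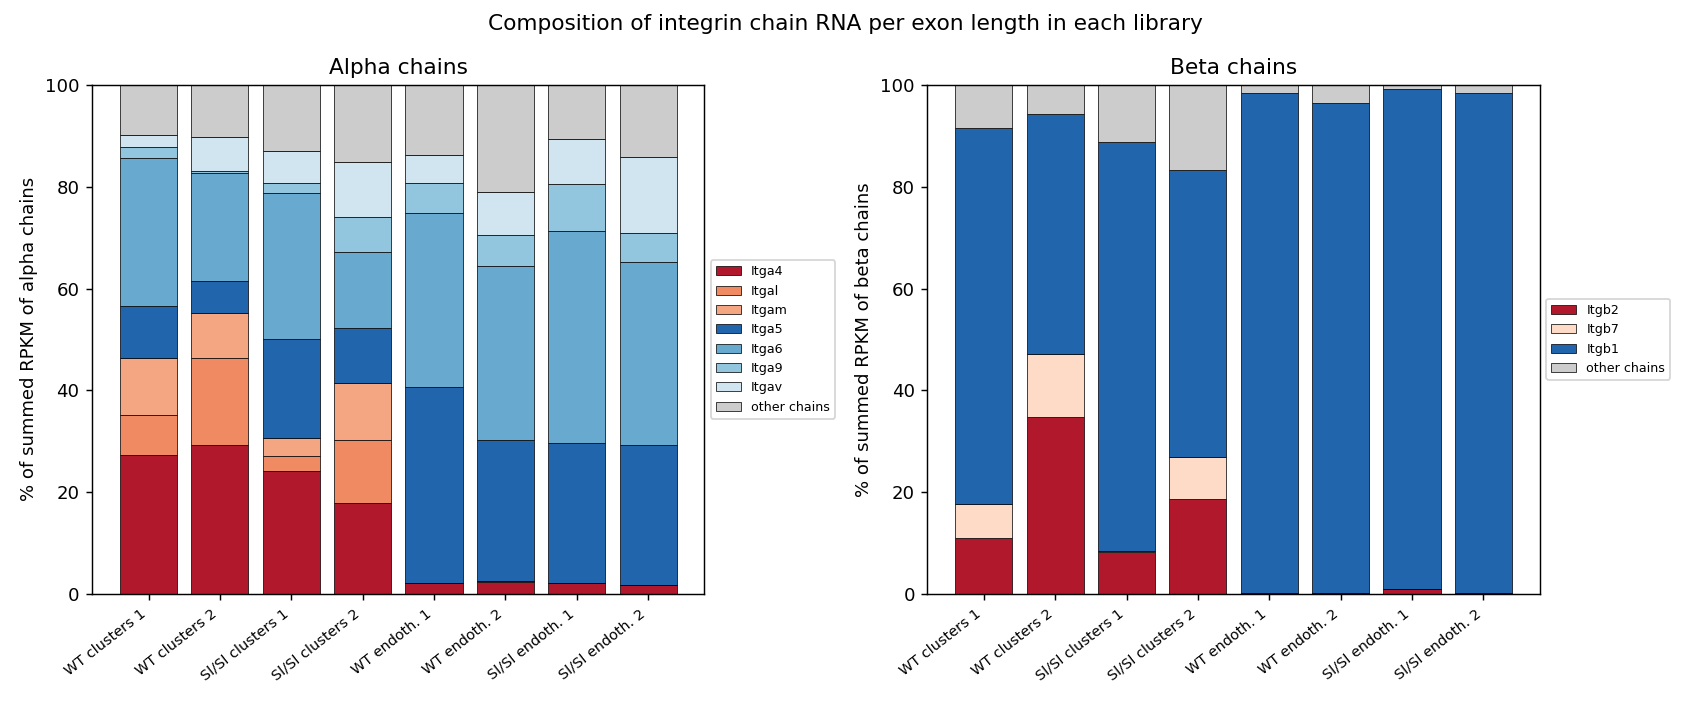
Share of each gene in the summed RPKM of the alpha chains (left) and of the beta chains (right), in percent, for each of the 8 libraries, with the chains not described here in grey. Red and orange segments, the genes higher in clusters, fill part of every cluster bar and nearly vanish in endothelium, where Itga5, Itga6 and Itgb1 fill most of the bars.

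Among alpha chains, Itga5 and Itga6 together made up 61.8 to 72.6% of the RPKM in endothelium and 25.7 to 48.1% in clusters. Itga4 made up 17.9 to 29.2% in clusters and 1.69 to 2.38% in endothelium. The ratio of Itga4 to Itga5, both fibronectin receptor chains, was 2.68 and 4.67 in wild type clusters, 1.24 and 1.65 in Sl/Sl clusters and between 0.0543 and 0.0864 in the endothelial libraries. This ratio was chosen after the values were seen and is given as a description. The genes described here held 78.9 to 90.2% of the alpha chain RPKM and 83.3 to 99.3% of the beta chain RPKM.

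No integrin gene passed the threshold between genotypes. In clusters, 0 of 10 genes were called at the adjusted threshold (0% of all genes), and 0 had an unadjusted p under 0.05, against 4.22% of all genes. In endothelium the same counts were 0 and 0, against 0% and 4.17%. All 20 adjusted p-values of edgeR's quasi-likelihood test were 1, and DESeq2 also called 0 of the 10 in either cell type, where it called 1.37% of all genes it tested in clusters and 1.37% in endothelium.

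Intervals of the genotype difference were narrowest for Itgb1, Itga4 and Itga6. For Itgb1, the log2 fold change of Sl/Sl over wild type was 0.25 in clusters (95% interval -0.36 to 0.86) and 0.22 in endothelium (-0.39 to 0.83). For Itga4 it was -0.50 in clusters (-1.23 to 0.23) and -0.25 in endothelium (-0.99 to 0.49). For Itga6 it was -0.33 in clusters (-1.19 to 0.53) and 0.19 in endothelium (-0.67 to 1.05).

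Itga4 levels ordered the groups as clusters above endothelium and, within each cell type, wild type above Sl/Sl. No neighbours in this order overlapped in TMM-scaled CPM. The margin in endothelium was narrow, 24.57 CPM in wild type replicate 1 against 24.52 in Sl/Sl replicate 1. Itga4 was the only gene of the 10 whose 2 wild type and 2 Sl/Sl cluster libraries did not overlap, where 33.6% of all tested genes did not. In endothelium the genotypes did not overlap for Itga4, Itgav and Itgal, 3 of 10, against 30.2% of all tested genes. For the other 9 genes the cluster libraries of the genotypes overlapped, and Itgav overlapped between Sl/Sl clusters and wild type endothelium too. With 2 libraries a side, an exact permutation test cannot give a p below 0.333.

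Itga5 was at 0.76 in clusters (95% interval -0.27 to 1.78) and -0.28 in endothelium (-1.29 to 0.74), and Itgav at 0.90 (-0.30 to 2.11) and 0.76 (-0.45 to 1.96), all as log2 fold changes of Sl/Sl over wild type. Itga9 had the largest value in clusters, 1.76 (-0.56 to 4.08), which was 4.53 without wild type clusters replicate 1 (adjusted p = 0.178) and 0.62 without Sl/Sl clusters replicate 2. The cluster libraries of the genotypes overlapped for all 3 genes.

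**Figure D4:**
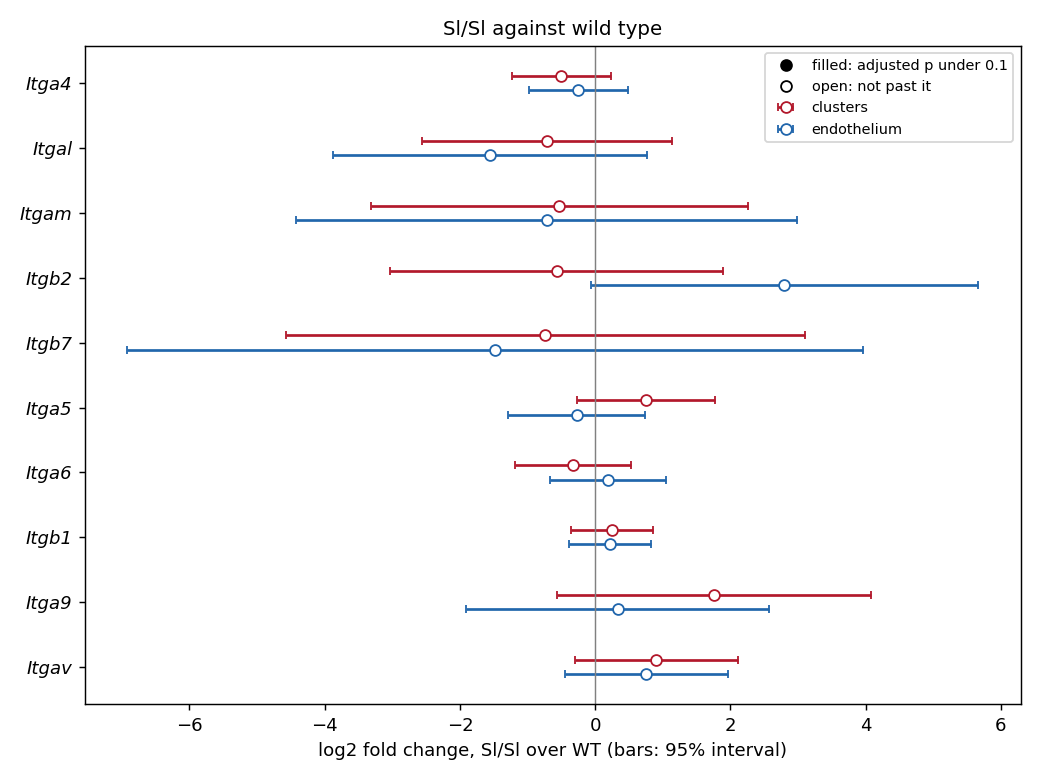
log2 fold change of each gene in Sl/Sl over wild type, with bars of the 95% interval, in clusters (red) and endothelium (blue). Each of the 20 intervals spans 0, and no point passed an adjusted p of 0.1.

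The leukocyte chains had wide intervals. In clusters the log2 fold change of Sl/Sl over wild type was -0.71 for Itgal (95% interval -2.56 to 1.14), -0.53 for Itgam (-3.31 to 2.25), -0.57 for Itgb2 (-3.03 to 1.89) and -0.73 for Itgb7 (-4.57 to 3.10). Each of the 4 was lowest in Sl/Sl clusters replicate 1, and without that library the values were 0.00, 0.09, 0.12 and 0.25. Other libraries moved them too: without wild type clusters replicate 2 the values were -0.28, -0.84, 0.71 and -0.04 in the same order. The genotype values of these genes in clusters thus depended on single libraries.

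The marker sums of other cell types varied between the cluster libraries, and they are given beside these chains. The macrophage list summed to 833 and 280 CPM in wild type clusters and 867 and 431 CPM in Sl/Sl clusters, of which Lyz2 was the largest part, with 7909, 1675, 6891 and 4207 counts. Single macrophage markers did not all follow the sum: Adgre1 had 16, 139, 180 and 43 counts, Cx3cr1 137, 359, 132 and 65, and C1qb 55, 155, 707 and 184. In wild type these 3 were higher in replicate 2, where Itgb2 was higher. In Sl/Sl Adgre1, Cx3cr1 and C1qb were higher in replicate 1, where Itgb2 was lower. Other markers of the list differed in direction. Csf1r had 448, 300, 263 and 529 counts and Fcgr1 169, 178, 92 and 118, both lowest in Sl/Sl clusters replicate 1. Mrc1 had 53, 1, 701 and 139 counts, highest in that library. The hematopoietic list was at 2008, 2813, 1636 and 1935 CPM in the same order, with its lowest value, like those of the 4 leukocyte chains, in Sl/Sl clusters replicate 1. That library also had the highest endothelial sum, 3117 CPM. The granulocyte list was at 684 to 1124 CPM in the cluster libraries. Of the 14 macrophage markers, 2 were at 0 in both wild type cluster libraries and 2 in both Sl/Sl cluster libraries. The part of such cells in the levels of the leukocyte chains was not tested.

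**Figure D5:**
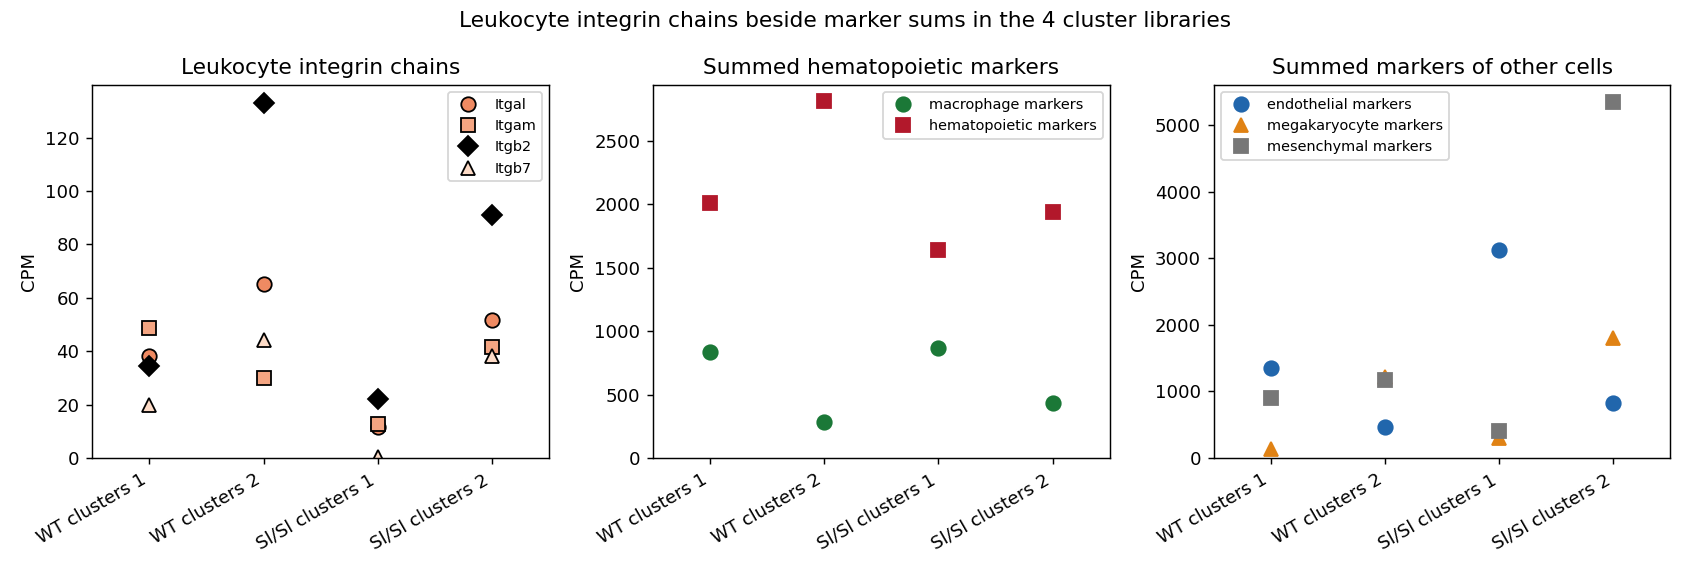
CPM of the 4 leukocyte chains (left), of the summed macrophage and hematopoietic markers (middle) and of the summed endothelial, megakaryocyte and mesenchymal markers (right) in the 4 cluster libraries. All 4 chains are lowest in Sl/Sl clusters replicate 1, where the endothelial sum is highest at 3117 CPM.

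In endothelium, Itgb2 had the largest genotype value of the 10, with a log2 fold change of 2.80 (95% interval -0.07 to 5.66, edgeR adjusted p = 1). It rested on the 86 counts of Sl/Sl endothelium replicate 1, since the other endothelial libraries had 8, 5 and 4 counts, and without that library the value was -0.26. The same library had 3 counts of Itgam and the lowest hematopoietic sum, 168 CPM, of all 8. Its macrophage sum was the lowest too, 6.92 CPM, with 35 counts of Lyz2. Its few counts of Adgre1 (2), Cx3cr1 (4), C1qb (6) and C1qc (4) were the highest among the endothelial libraries. Its counts of Csf1r (3) and Mrc1 (1) were not, and those of Cd68 were the lowest, 23 against 58, 92 and 32. The part of macrophage RNA in its Itgb2 counts was not tested. Without it, the difference of Itgb2 between Sl/Sl endothelium and Sl/Sl clusters was -6.88 on the log2 scale (adjusted p = 0.0637), against -3.80 (adjusted p = 0.201) with it.

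Of the 17 other integrin chains, 11 were tested, and 3 were higher and 2 lower in endothelium than in clusters. The shares over all tested genes, 8.48% higher and 8.12% lower, stand beside this and the lists that follow. Higher were Itga1 (log2 fold change 3.63, edgeR adjusted p = 0.0211) and Itga2 (6.16, adjusted p = 0.0322), both collagen receptor chains, and Itgb4 (5.07, adjusted p = 0.0432), the partner of Itga6 in hemidesmosomes. Lower were Itgb3 (-3.44, adjusted p = 0.0246), the beta chain of the platelet fibrinogen receptor, and Itgax. Itgax, which encodes CD11c, had 30, 33, 46 and 48 counts in the cluster libraries and 0 in all endothelial libraries. The median of the 11 was -0.41, against -0.07 over all tested genes.

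A list of 24 regulators of integrin activation, inhibitors among them, had 22 tested genes. Of these, 3 were higher and 4 lower in endothelium, and the median log2 fold change was -0.26. Fermt3, the kindlin of blood cells, was 18.2-fold lower in endothelium, with 105 ± 46.0 CPM in clusters and 5.73 ± 4.31 in endothelium (SD, n = 4; edgeR adjusted p = 0.00620). Fermt2, the kindlin of most other cells, was 3.02-fold higher, with 63.3 ± 28.3 and 180 ± 7.88 CPM (adjusted p = 0.00270). Fyb, an adaptor of integrin activation in leukocytes, was at 40.4 ± 14.7 and 0.526 ± 0.258 CPM (adjusted p = 0.000621), and Cd47, an integrin-associated membrane protein, at 526 ± 174 and 116 ± 34.1 CPM (adjusted p = 0.00115).

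Of 24 genes of the adhesion complexes under integrins, all tested, 8 were higher and 2 lower in endothelium, with a median log2 fold change of 0.49. Ptk2, the focal adhesion kinase, was at 42.0 ± 21.6 CPM in clusters and 162 ± 67.5 in endothelium (SD, n = 4; edgeR adjusted p = 0.00884). The scaffold gene Nedd9 had 27.2 ± 12.7 and 177 ± 34.9 CPM (adjusted p = 0.00306), and Parvb, a partner of integrin-linked kinase, was 5.96-fold higher (adjusted p = 0.00946). Lpxn, leupaxin of hematopoietic cells, was the reverse, with 25.2 ± 18.8 CPM in clusters and 0.0695 ± 0.0819 in endothelium (adjusted p = 0.00285).

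The ligand genes called at the adjusted threshold were all higher in endothelium. Of the 12 tested cell surface ligands, 3 had a negative value without passing. Among them were Icam4 (log2 fold change -3.29, edgeR adjusted p = 0.157) and Cdh1 (-7.18, adjusted p = 0.132). Of 22 matrix ligands, all tested, 13 were higher and 0 lower, with a median log2 fold change of 1.78. Among them were the laminin chains Lamb1 (3.05, edgeR adjusted p = 0.000346), Lamc1 (2.52, adjusted p = 0.00379) and Lama4 (3.47, adjusted p = 0.00436) and the laminin-binding nidogen Nid1 (4.14, adjusted p = 0.000123). Of 14 cell surface ligands, 12 were tested, and 7 were higher and 0 lower, with a median of 1.70. These included Icam2 (2.37, adjusted p = 0.00249), a ligand of the Itgal and Itgb2 receptor, and Madcam1 (an 18.4-fold difference, adjusted p = 0.0134), the ligand of the Itga4 and Itgb7 receptor. F11r, the junctional molecule JAM-A (2.08, adjusted p = 0.00349), and Pecam1 (1.99, adjusted p = 0.00386), which is also among the endothelial markers, were the other two genes with the smallest p.

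Over both genotypes, receptor genes higher in clusters and ligand genes higher in endothelium thus stood on opposite sides of the comparison for 2 pairs among the genes named. Itgal and Itgb2 were higher in clusters while Icam2 was higher in endothelium, and Itga4 and Itgb7 were higher in clusters while Madcam1 was higher in endothelium. Icam1 was called higher in endothelium too (log2 fold change 1.08, edgeR adjusted p = 0.0335). Within Sl/Sl alone, Icam2 (edgeR adjusted p = 0.120), Madcam1 (0.314) and Itgb2 (0.201) did not pass, and Itgb7 passed in neither genotype alone. Vcam1, another ligand of the Itga4 product, had 2, 96, 40 and 329 counts in the cluster libraries and 318, 81, 143 and 2 in the endothelial libraries, with a log2 fold change of 0.54 (SE 1.33, edgeR adjusted p = 0.851). Between genotypes, 0 genes were called in any of these 5 lists in either cell type. In clusters, 19 of the 22 matrix ligands had a positive value of Sl/Sl over wild type. Their median log2 fold change was 1.01, against 0.03 over all tested genes. Of all tested genes 4.22% had an unadjusted p under 0.05, and of these 22 ligands 4 had. The endothelial markers, beside these, summed to 1353 and 462 CPM in the wild type cluster libraries and to 3117 and 820 CPM in the mutant ones, and the mesenchymal markers to 903 and 1177 CPM and to 405 and 5344 CPM. All 12 mesenchymal markers had a positive genotype value in clusters, with a median of 1.38. So had 14 of the 15 endothelial markers, with a median of 0.96. Tnc, Vtn, Lama2 and Fbln5 had their highest cluster counts, 479, 238, 372 and 375, in Sl/Sl clusters replicate 2. Col4a1, Col4a2, Lama3 and Lama4 had theirs, 4650, 2510, 213 and 425, in Sl/Sl clusters replicate 1. Lamb1 and Lama5 had theirs, 527 and 217, in wild type clusters replicate 1. The part of either cell type in the ligand values was not tested.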

How the data were processed

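Gene counts of 8 libraries were analysed, 4 groups of 2, mapped from the titles and the genotype and cell type labels. The libraries are separate samples, and the labels do not say which came from the same sort. Per the labels and the methods of the study, the authors aligned SMARTSEQ2 reads to mm9 with STAR 2.4.2a and counted them with featureCounts of Subread 1.4.5. The deposited table holds unscaled counts for each gene, with exon coordinates and exon length, and the authors themselves tested with DESeq2 1.12.4. The annotation, the strand setting and the handling of reads with several matches are not given in the sources used here, so overlapping genes and near copies can share reads. Libraries carry no molecular identifiers, so intervals from counts cover counting error only.

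Tests used R 4.3.3 with limma 3.58.1 and edgeR 4.0.16: TMM scaling, filterByExpr on the 4 groups, 1 quasi-likelihood fit over all 8 libraries and 13908 genes (biological coefficient of variation 0.817), and Benjamini-Hochberg adjustment over all of them with a threshold of 0.1. CPM used TMM-scaled totals, RPKM used plain totals, and log2 CPM a prior count of 2. No protein sequences were used here, and promoters came from RefSeq. Named are the 10 integrin genes, the 4 called genes of each list with the smallest p over both genotypes, and for each integrin gene the tested gene of highest Pearson correlation. Vcam1, Icam1, Itgax, Itgb5, the further ligand genes named and the promoters shown were chosen after their values were seen. The members and lists were chosen with earlier results of these data known. In the table, 27 gene names had become dates and are not named. Tests were checked on simulated counts. Alternatives were DESeq2 1.42.0, RLE size factors, no filter, a threshold of 0.05, a minimum of 10 counts in every library, the 4 libraries of 1 genotype or cell type, the replicate number as a block, a prior count of 0.5, TMM-scaled RPKM and leaving out each library.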

Additional observations from a re-analysis of the deposited data

How the results depend on the processing

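Under the alternatives, 0 of the 10 genes were called between genotypes or in the interaction. The difference between cell types over both genotypes was called in 8 genes, in 8 to 9 when 1 library was left out, in 10 with DESeq2 (25.7% of all genes) or with no filter (17.7%), in 9 with the replicate block (15.3%), and in 5 with at least 10 counts in every library (20.2%), where the 4 leukocyte chains were left out by that filter. In wild type the count was 6, 5 to 7 without 1 library, 8 with DESeq2 (19.2%) or no filter (11.7%), 7 on the 4 libraries (7.67%) and 3 with at least 10 counts (10.5%). In Sl/Sl it was 4, and it was 2 at an adjusted p under 0.05, 2 with at least 10 counts, 2 on the 4 Sl/Sl libraries, 8 with DESeq2, 8 with no filter and 2 to 5 without 1 library, the 2 being without Sl/Sl clusters replicate 2. DESeq2 called 12.3% and no filter 7.41% of all genes there. RLE factors changed 0 counts. Genes whose log2 CPM did not overlap between cell types numbered 9 or 10 under the other prior count, RLE factors and without 1 library, and on RPKM Itga9 overlapped as well. The direction of every called gene held in all alternatives.

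The samples were not treated as paired: the labels do not say that a replicate number marks a shared sort, and the deviations of samples with the same number correlated between -0.12 and 0.19, highest for the cluster groups. A shared sort is therefore not excluded. With the replicate block, the counts were 9 over both genotypes, 6 in wild type and 6 in Sl/Sl, and Itgav then passed over both genotypes (adjusted p = 0.0494).

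Calls of single genes rested on single libraries in places. Itgb1 lost its call in wild type without wild type clusters replicate 2 (adjusted p = 0.147) or wild type endothelium replicate 1 (0.122), and in Sl/Sl without Sl/Sl clusters replicate 1 (0.171), Sl/Sl clusters replicate 2 (0.101) or Sl/Sl endothelium replicate 1 (0.263). Itgam lost its call in Sl/Sl without Sl/Sl clusters replicate 2 (0.205), Sl/Sl endothelium replicate 1 (0.106) or Sl/Sl endothelium replicate 2 (0.145). Itgb7 gained one in Sl/Sl without Sl/Sl clusters replicate 1 (0.0378). Over both genotypes, Itgav gained one without wild type clusters replicate 2 (0.0682), with DESeq2 (0.0546) and with no filter (0.0403), and Itga9 without wild type clusters replicate 1 (0.00704), Sl/Sl clusters replicate 2 (0.0971) or Sl/Sl endothelium replicate 2 (0.0997), with DESeq2 (0.0268), with no filter (0.00143) and with at least 10 counts (0.0983). Itgb7 in wild type (0.0254 to 0.0690) and Itga6 in Sl/Sl (0.0679 to 0.0765) gained calls when libraries of other groups, or for Itga6 also Sl/Sl clusters replicate 1, were left out. The causes were not tested. With 2 libraries a group and 8 or fewer counts of each leukocyte chain in all endothelial libraries but 1, depth limits their genotype values there.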

Other observations

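Among tested genes outside the 10, the closest pattern to each over the 8 libraries was taken as the highest Pearson correlation of log2 CPM. All points share the 2 cell types and their library depths, so the values are a description. Itgal was closest to Ncf1 (r = 0.997), an oxidase subunit gene of phagocytes, and Itgam to Vav1 (0.990), a signaling gene of blood cells that is also among the hematopoietic markers. Itga5 was closest to She (0.997), Itga6 to Rgs3 (0.991), Itgb1 to Cd97 (0.984), Itga4 to Spef2 (0.995), Itga9 to Slc16a4 (0.989) and Itgb7 to 5031414D18Rik (0.993). Itgb2 was closest to Epb4.1l4b (0.996), and Itgav, with the lowest value of the 10, to Clec1b (0.965). Clec1b was listed among the megakaryocyte markers, but unlike 9 of those 10 it had a positive value in endothelium over clusters, with 171 to 1546 counts in clusters and 1267 to 2148 in endothelium.

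Among the chains outside the 10, Itgb5, a partner of Itgav, had 780 counts in Sl/Sl clusters replicate 2 and 0 to 105 in the other libraries. The same library had the highest cluster values of Itgav, Itga9 and Itgb1 and the highest mesenchymal marker sum, 5344 CPM.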
